A study of Mus musculus with 8 samples.

Results

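The comparison described here sets mouse embryonic stem cells that lack the microRNA cluster miR-290-295 (KO, 2 libraries) against wild-type cells (WT, 2 libraries), all untreated. These 4 libraries were taken by their labels from the 8 of the series, and the other 4 hold KO cells transfected with small interfering RNAs. Both groups are E14 cells, a line derived from a blastocyst of 129/Ola background, grown on gelatin in DMEM with serum and LIF, the cytokine that maintains self-renewal. The RNA was read by QuantSeq, which sequences 1 fragment next to the poly(A) tail of a transcript, so that counts follow molecules and are not scaled by transcript length. How the knockout was made, and whether the KO cells are 1 clone, is not given in the sources used here, nor is the meaning of the suffixes that differ between the duplicates (HWP8 and CC for KO, CC and 2020815 for WT). No group restores the cluster, so its loss and other differences between the KO and WT cells cannot be told apart. The duplicates are described as biological. The p-values rest on the spread between them, weighted with that of other genes (2 residual and a median of 8.15 prior degrees of freedom).

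MicroRNAs guide Argonaute proteins to messenger RNAs, mostly by pairing of the seed, bases 2 to 8, with sites in the 3′ untranslated region (UTR), and this lowers the level and translation of the target. In embryonic stem cells the miR-290-295 cluster gives rise to a large share of all microRNA, and its members are known for promoting passage through G1 and for repressing regulators of differentiation. The mature 3p arms are shown because the words searched in the UTRs below are their complements. They are written 5′ to 3′ from RefSeq (build GRCm38.p6, chromosome 7, plus strand), with the seed in capitals.
miR-290a-3p: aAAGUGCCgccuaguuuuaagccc
miR-291a-3p: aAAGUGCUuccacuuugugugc
miR-291b-3p: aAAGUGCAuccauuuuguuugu
miR-293-3p: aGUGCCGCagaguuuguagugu
miR-294-3p: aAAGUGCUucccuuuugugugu
miR-295-3p: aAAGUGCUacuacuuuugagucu
The seed AAGUGCU is shared by miR-291a-3p, miR-294-3p and miR-295-3p. In miR-290a-3p and miR-291b-3p the seed ends in another base, and the seed of miR-293-3p is GUGCCGC. The 3p arm of miR-292a is named only.

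The labels were checked first. Plus-strand entries of the cluster, at chr7:3218626-3220841, summed to 0 in each KO library and to 88 and 39 counts in WT, where a count of 0 allows up to 3 counts over the group. The KO libraries were not alike on the other strand: Nlrp12, whose annotation overlaps the cluster, had 161 counts in KO replicate 1 and none in KO replicate 2, against 0 and 1 in WT, and Mir290b had 4 counts in KO replicate 1 alone. Within 500000 bases on each side 19 genes were tested, Mir295 among them, and their median log2 fold change (KO over WT) was -0.16. Apart from Mir295, Tsen34, a subunit gene of the tRNA splicing endonuclease, was the sole gene called there, at 0.91 (SE 0.21, adjusted p = 0.0213). That call was lost without KO replicate 1 (adjusted p = 0.174), KO replicate 2 (0.101) or WT replicate 1 (0.0609), and 62.4% of the last 200 bases of Tsen34 are shared with other genes.

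Library totals lay between 9925557 and 12726123 counts. All 10 stem cell markers were tested, and their summed level was 3659 and 3657 CPM, counts scaled to library size, in KO and 3542 and 3661 CPM in WT libraries. Of these, Fgf4 was called higher and Utf1 and Lin28a lower. Nanog stood at 541 and 552 CPM in KO and 434 and 447 CPM in WT, and Sox2 at 1061 and 869 against 658 and 767 CPM. Neither of these regulators of pluripotency was called. Markers of other cell types differed in level. The 10 trophoblast markers summed to 403 and 254 CPM in KO and 111 and 121 CPM in WT, most of it from Tfap2c, a transcription factor gene also active in germ cells, which was called higher at 380 and 231 against 91.1 and 86.9 CPM, while Ascl2 was called lower and Tpbpa was at 0 in all 4 libraries. The 8 neural markers summed to 103 and 74.1 CPM in KO and 53.6 and 110 CPM in WT. Of the 6 tested, 1 was called higher and 0 lower. The gene called was Pax6, a regulator of eye and brain development, at 16.0 and 16.5 against 0.417 and 0.497 CPM. Elavl3 went the other way, with 7.55 and 3.67 CPM in KO and 12.2 and 44.4 CPM in WT. Map2 also had a fitted change below 0, and Sox1, Tubb3 and Nes had fitted changes above 0. The 8 blood and endothelial markers summed to between 69.9 and 106 CPM, nearly all from Pecam1, which was not called. The 10 fibroblast or feeder genes summed to at most 23.2 CPM in KO and to 31.4 and 56.0 CPM in WT, mostly from Thy1, with Col3a1, Dcn, Fap and Postn at 0 in all 4 libraries. Ptprc and the hemoglobin genes held at most 1 count in a library. Primitive endoderm markers summed to 27.9 and 25.6 CPM in KO and 177 and 188 CPM in WT, and 7 of the 10 tested were called lower, with Afp and Ttr at no more than 1 count in a library. In bulk RNA, fewer cells of a type and less RNA per cell cannot be told apart, and the part of this in the changes below was not tested.

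Of 14427 genes tested, 1861 (12.9%) differed between KO and WT cells by edgeR's quasi-likelihood test with Benjamini-Hochberg adjustment, which gives every adjusted p below. The calls were 1114 higher in KO (7.72%) and 747 lower (5.18%), of which 758 and 493 changed by at least 2-fold. Genes called higher took up 9.13% and 9.02% of the counts of tested genes in the KO libraries against 4.51% and 4.74% in WT, and genes called lower took up 4.13% and 4.11% in KO against 7.20% and 7.17% in WT. In fits with 1 library left out, the spread between duplicates comes from the other group alone. The WT duplicates lay further apart than the KO duplicates (chi-square per degree of freedom 20.8 against 12.4). A call lost without a KO library therefore does not show that the change rests on that library. Without KO replicate 1 or KO replicate 2 the calls dropped to 423 and 435 higher and to 143 and 162 lower, while without WT replicate 1 or WT replicate 2 they were 933 and 1126 higher and 731 and 801 lower. Calls that held without any 1 library numbered 286 higher and 81 lower.

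**Figure D1:**
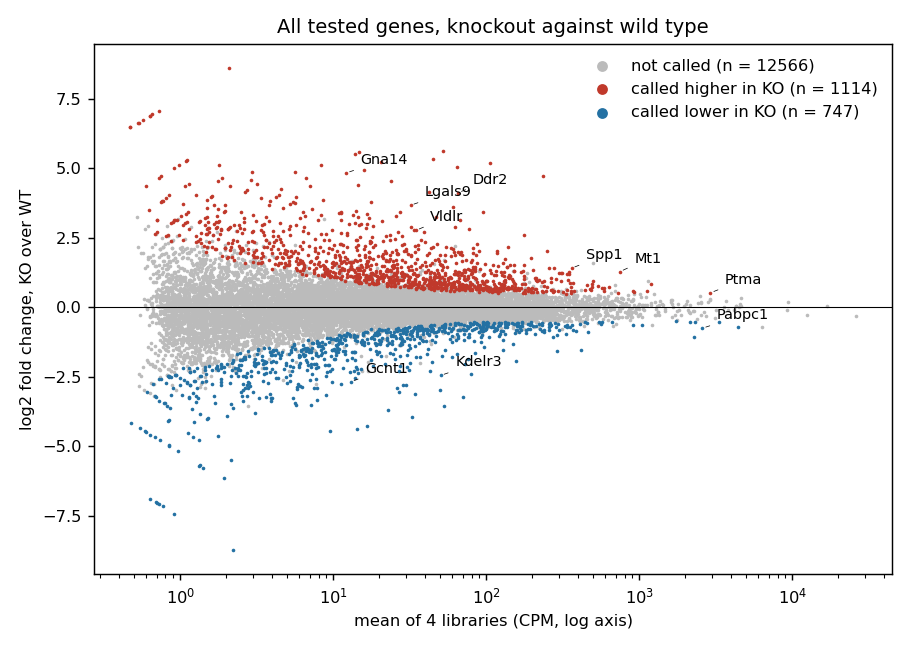
Each point is 1 of the 14427 tested genes, placed by its mean over the 4 libraries (CPM, log axis) and by its fitted log2 fold change of KO over WT. The 1114 genes called higher are red and the 747 called lower are blue, and a few described in the text are labelled.

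The changes were not spread evenly over the chromosomes. On chromosome 1, 150 of 889 tested genes were called higher (16.9%, against 7.72% of all tested genes) and 28 lower, and the median log2 fold change was 0.27, against -0.0049 for all tested genes. Chromosome 1 holds 6.16% of the tested genes and 13.5% of those called higher. Chromosome 15 leaned the other way, with 25 of 554 genes called higher, 53 called lower (9.57%) and a median of -0.15. Genes of the mitochondrial genome had a median of -1.17, with 0 of 23 called higher and 11 lower (47.8%). Of these 23, 13 are tRNA genes, with 8 called lower, and 2 are ribosomal RNA genes, with 1 called lower. The median was -0.86 over the 14 genes of at least 10 CPM, and -0.91 over all 23 without KO replicate 1. On the other 16 autosomes, leaving out chromosome 6, medians lay between -0.07 and 0.04.

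The WT duplicates differed from each other over chromosomes 1 and 15. Over the 542 chromosome 1 genes of at least 10 CPM, the median difference relative to all genes was 0.40 and 0.45 for the KO libraries against WT replicate 1, and 0.16 and 0.18 against WT replicate 2. WT replicate 1 stood at -0.29 relative to WT replicate 2, and KO replicate 1 at -0.02 relative to KO replicate 2. Both WT libraries were thus lower than both KO libraries, by unequal amounts. All 12 windows of 10 Mb with at least 20 such genes on chromosome 1 had a median fold change above 0, from 0.16 to 0.47. On chromosome 15 the KO libraries stood at -0.26 and -0.26 against WT replicate 1 and at -0.04 and -0.03 against WT replicate 2, so that the lower level there rested on WT replicate 1, and the median was -0.01 without that library. KO cells of the set prepared separately, transfected with siRNA pools, had chromosome 1 medians between 0.01 and 0.12 relative to the WT mean.

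The KO duplicates parted on chromosome 3. In its windows from 30 to 40 Mb and from 50 to 60 Mb, KO replicate 1 stood 0.36 and 0.34 above KO replicate 2, while medians of the WT duplicates there differed by 0.13 and 0.10.

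A stretch of chromosome 6 from 82 to 98 Mb, picked out after its values were seen, separated the WT duplicates more sharply. Of 75 genes of at least 10 CPM there, 73 were higher in WT replicate 1 than in WT replicate 2, with a median difference of 0.73, while medians in the other windows of the genome ranged from -0.35 to 0.31. The KO libraries stood 0.05 and 0.06 above WT replicate 1 and 0.84 and 0.80 above WT replicate 2. WT replicate 2 alone was thus the low library in this stretch. Of the 75 genes, 9 were called higher and 2 lower, against 795 and 438 of all 8713 tested genes of at least 10 CPM. Y-linked genes also differed between the duplicates: Ddx3y, an RNA helicase gene, held 1238 and 150 counts in WT and 293 and 78 in KO, and Eif2s3y 440 and 102 against 111 and 62. Neither was called. Of 5 Y-linked genes tested, 1 was called higher, the gene model Gm47283, and 1 lower, Zfy1, with 27 and 14 counts in WT and 0 and 0 in KO. Copy number was not measured, and its part in these differences was not tested.

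**Figure D2:**
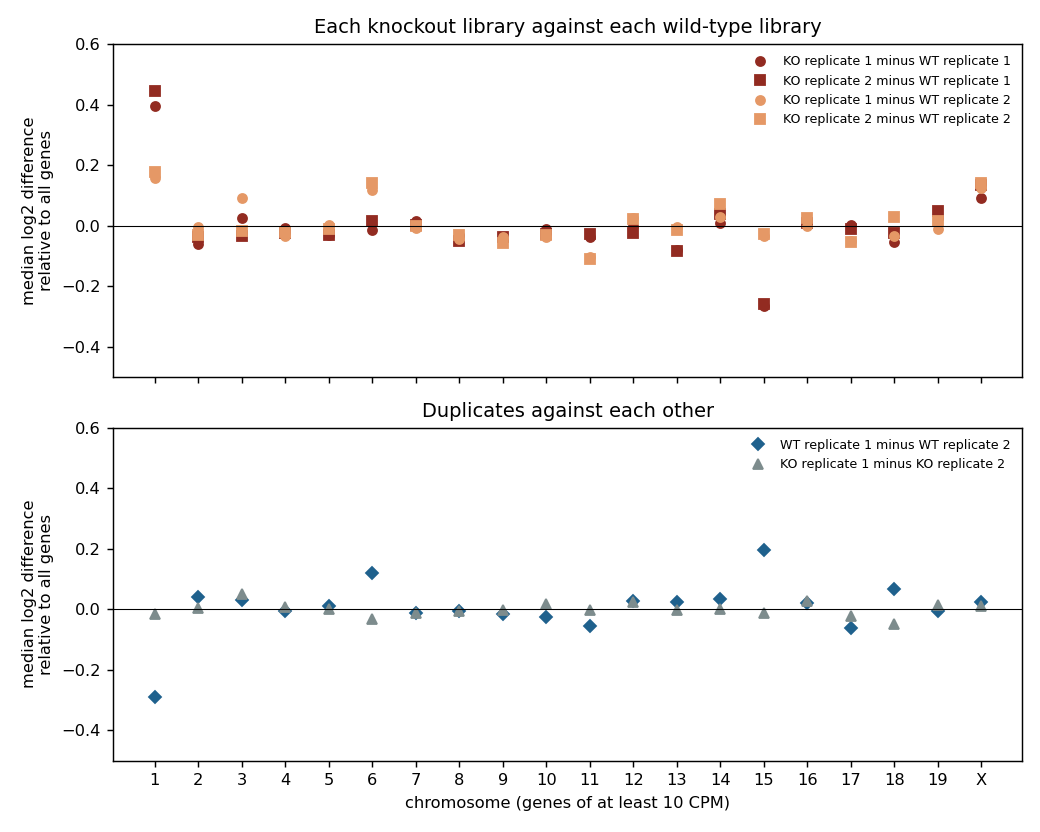
For each autosome and the X chromosome, the median log2 difference of genes of at least 10 CPM, relative to all such genes, is shown for each KO library against each WT library (top) and for the duplicates against each other (bottom). Among these, chromosome 1 has the highest points of the top panel against each WT library, and in the bottom panel the WT duplicates part at chromosomes 1, 6 and 15.

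With each gene set against the running median of its neighbours, a correction added after seeing the data, the calls were 1077 higher and 749 lower, and 972 of the 1114 and 646 of the 747 were shared. Chromosome 1 then had 84 genes called higher and 65 lower. Without WT replicate 1 it had 98 higher and 44 lower, without WT replicate 2 it had 196 and 20, and without KO replicate 1 or KO replicate 2 it had 67 and 52 higher and 4 and 7 lower. Genes of chromosome 1 named below are marked as such, and are to be read beside the chromosome's median of 0.27.

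**Figure D3:**
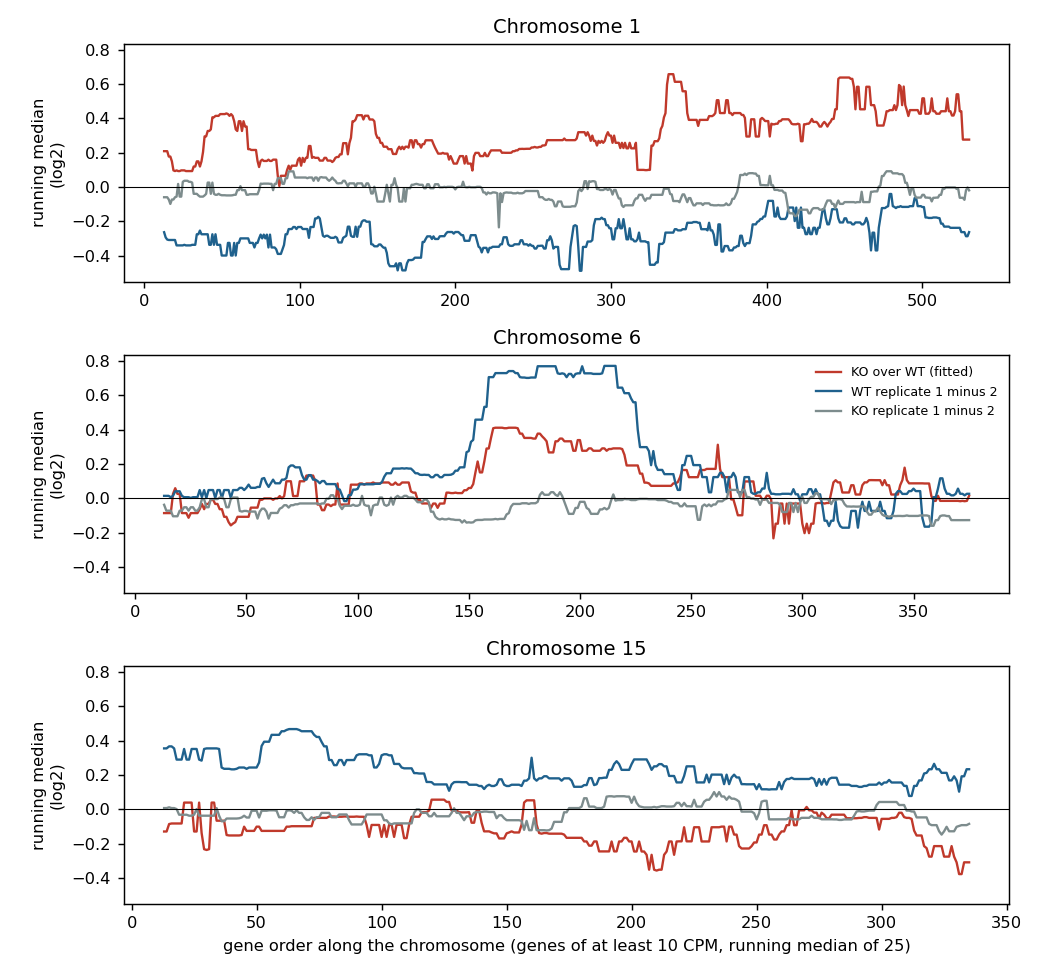
Running medians over 25 genes of at least 10 CPM, in gene order along chromosomes 1, 6 and 15, are shown for the fitted log2 fold change of KO over WT (red), WT replicate 1 minus 2 (blue) and KO replicate 1 minus 2 (grey). The red line lies above 0 over chromosome 1, and the step in the blue line on chromosome 6 is the stretch from 82 to 98 Mb.

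Genes were next grouped by whether their 3′ UTR holds a word that pairs with a seed, and the shares called are given as a description, with no test between the groups. The longest annotated 3′ UTR was searched on the sense strand for AGCACTT, the complement of the seed shared by 3 of the arms. The second word, GGCACTT, is the complement of the seed of miR-290a-3p. A further word, GCACTTA, is the complement of seed bases 2 to 7 followed by an A. The words overlap in GCACTT, and each gene was put in the first class it matched. Of 2308 genes with AGCACTT, 11.2% were called higher and 3.38% lower, with a median log2 fold change of 0.10. Of 8178 genes with none of these words and no GCACTT, 7.25% were called higher and 6.16% lower, with a median of -0.03.

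The 838 genes with GGCACTT and no AGCACTT had 9.55% called higher and 3.46% lower. UTR length differed between these classes (a median of 2662 bases with AGCACTT and 904 bases with no word), so the classes were also compared within bounds of length. In UTRs under 1000 bases the medians were 0.11 with AGCACTT (263 genes, 13.7% called higher) and -0.06 with no word (4392 genes, 7.04%), and in UTRs over 3000 bases they were 0.09 (999 genes, 10.5%) and 0.01 (615 genes, 8.46%). Outside chromosome 1 the medians were 0.07 and -0.05.

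AGCACTT occurs in 18.4% of the searched UTRs. Among the 33 genes named below from a gene list and called higher without any 1 library, 7 hold it, a share near that background. Sites of 4 of them are shown as what the seed could pair with, 23 bases each on the sense strand in GRCm38 with the word in capitals.
Vldlr, chr19:27249515-27249537, plus strand: tattcttaAGCACTTtgaagata
Nrp2, chr1:62796342-62796364, plus strand: cgcccctaAGCACTTcacaaccc
Nrp2, chr1:62798136-62798158, plus strand: cgtcacggAGCACTTtttgttgt
Lamp2, chrX:38420718-38420740, minus strand: actgctacAGCACTTactaattt
Wwtr1, chr3:57457014-57457036, minus strand: tctctctgAGCACTTcaagagag
The Lamp2 site is followed by an A and so holds GCACTTA as well. A match is a string of letters, and binding there was not measured.

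Annotated classes of transcripts moved unequally. Of 12531 protein-coding genes, 1034 were called higher (8.25%) and 671 lower (5.35%). Antisense RNA genes had 23 of 191 called higher and 4 lower, and long intergenic RNA genes 31 of 312 higher (9.94%) and 8 lower. Small nucleolar RNA genes had 0 of 68 higher and 33 lower (48.5%), and small Cajal body RNA genes 6 of 6 lower. Mitochondrial tRNA genes had 0 of 13 higher and 8 lower (61.5%). The small nucleolar and Cajal body RNAs carry no poly(A) tail in their mature form. Among the 18 tested members of a list of named long noncoding RNAs, 5 were called higher and 0 lower. Neat1, the scaffold of nuclear paraspeckles, stood at 240 and 135 CPM in KO and 64.5 and 28.5 CPM in WT, 2.00 (SE 0.44, adjusted p = 0.0397). Its call was lost without KO replicate 1 (adjusted p = 0.112) or WT replicate 2 (0.0685), and with the correction for position (0.0620). The list had 0 calls higher without KO replicate 1, 1 without KO replicate 2 and 1 without WT replicate 2.

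The following genes are among the 20 largest rises by fold. Gna14, a G protein subunit gene of the Gq class, stood at 26.4 and 20.5 CPM in KO and at 0.835 and 0.796 CPM in WT libraries, a log2 fold change of 4.83 (SE 0.40, adjusted p = 0.000184). Adgrg6, an adhesion G protein-coupled receptor gene, was at 37.1 and 54.8 CPM against 1.09 and 2.98 CPM (4.54, SE 0.39). The gap junction gene Gjb1 had 32.0 and 23.6 CPM against 1.17 and 1.49 CPM (4.39, SE 0.37). Each of the 3 was low in both WT libraries. A lack of overlap between the groups was a condition for entering this ranking, and the ranking by fold favours low WT levels, so neither is a result.

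Ddr2, a collagen receptor kinase gene on chromosome 1, had 109 and 138 CPM in KO and 4.01 and 10.5 CPM in WT (4.12, SE 0.36, adjusted p = 0.000513). Parvg, which encodes a parvin that links integrins to actin, rose by 3.79 (SE 0.44), from 3.67 and 0.895 CPM in WT to 38.9 and 27.1 CPM in KO. Lgals9, a galectin gene, went from 5.34 and 3.88 CPM to 52.2 and 66.3 CPM (3.67, SE 0.27). Lipid enzymes appear here as well: Slc27a2, a very long-chain acyl-CoA synthetase and fatty acid transporter gene, rose by 3.43 (SE 0.26), from 5.17 and 3.98 CPM to 45.0 and 54.6 CPM. Pla2g2e, a secreted phospholipase gene, rose by 3.46 (SE 0.36), and Entpd3, an ectonucleotidase gene, by 3.43 (SE 0.55). These 9 genes kept their calls without any 1 library and with the correction for position (highest adjusted p = 0.0386, for Entpd3 without KO replicate 2).

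The 20 largest falls by fold included the small RNA genes Snora20 and Snord13 and, of the primitive endoderm list, Dab2 and Col4a1. Another 5 of them are described here. Gcnt1, which makes core 2 branches of O-linked glycans, was at 2.75 and 4.27 CPM in KO and 22.1 and 22.8 CPM in WT, -2.68 (SE 0.31, adjusted p = 0.000792). Kdelr3, a receptor that returns chaperones to the endoplasmic reticulum, was at 15.4 and 15.6 CPM against 77.0 and 93.3 CPM, -2.45 (SE 0.20). Ctsc, the lysosomal protease cathepsin C, was at 2.20 and 5.97 CPM against 17.4 and 29.8 CPM, -2.54 (SE 0.44). A lack of overlap was a condition for this ranking too. Kdelr3, on chromosome 15, was also called with the correction for position.

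Tex15, a gene of meiosis and of transposon silencing in male germ cells, fell by 2.38 (SE 0.32), and Hdac7, a class IIa histone deacetylase gene, by 2.31 (SE 0.40). Hdac7 had 5.35 and 12.7 CPM in KO and 33.5 and 55.5 CPM in WT, with the duplicates apart in both groups. It lies on chromosome 15 and was called with the correction for position. These 5 calls held without any 1 library. Over all tested genes, both KO libraries lay above both WT libraries in 29.4% and below them in 28.5%, so a lack of overlap by itself is common with 2 libraries a group.

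**Figure D4:**
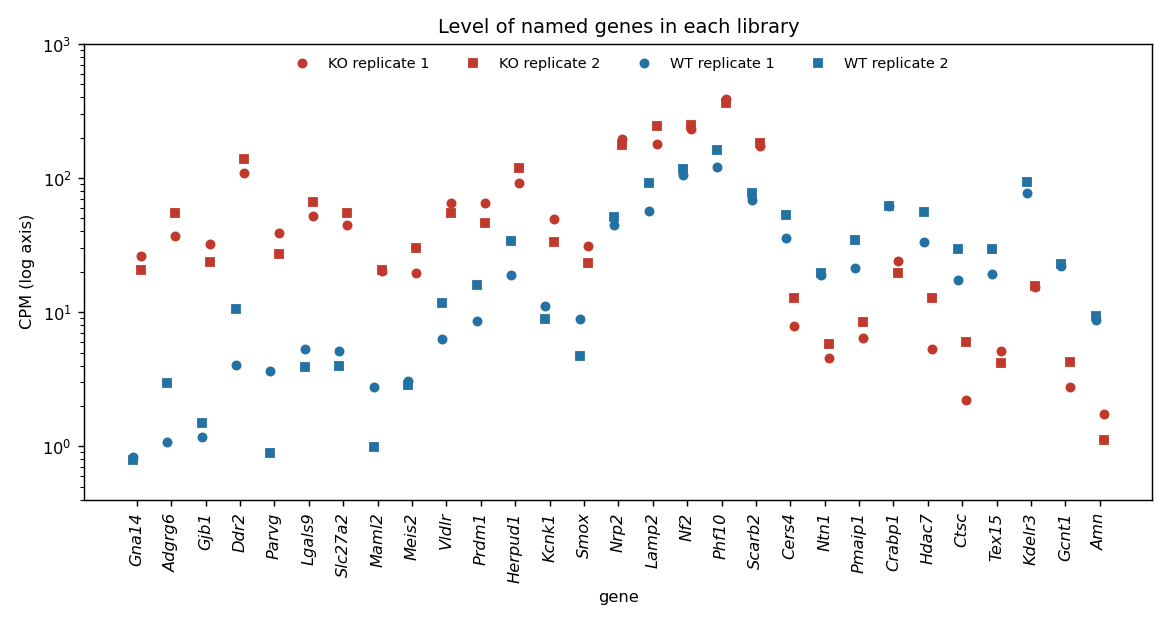
Levels of 29 genes described in the text are shown in each of the 4 libraries (CPM, log axis), with KO in red, WT in blue, circles for replicate 1 and squares for replicate 2. In each of these genes the KO points lie all above or all below the WT points.

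The largest gains in level fell to abundant genes with modest ratios, and several lie on chromosome 1. Of the 10 genes that gained the most CPM, 4 are on that chromosome. Ptma, the gene of the acidic nuclear protein prothymosin alpha, had 3603 and 3268 CPM in KO and 2166 and 2630 CPM in WT (0.52, SE 0.14, adjusted p = 0.0335). Enah, an actin filament elongation factor gene, had 1447 and 1591 CPM against 840 and 878 CPM (0.82, SE 0.13). Eprs, a tRNA synthetase gene (0.57, SE 0.13), and Trip12, a ubiquitin ligase gene (0.72, SE 0.13), are the other two.

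With the correction for position Ptma, Enah and Eprs were no longer called (adjusted p = 0.0939, 0.0603 and 0.270), and Trip12 was (0.0295). The calls of Ptma, Eprs and Trip12 were lost without KO replicate 1 (adjusted p = 0.263, 0.154 and 0.0956) or KO replicate 2 (0.124, 0.158 and 0.0643), those of Ptma and Eprs also without WT replicate 1 (0.119 and 0.0552), and that of Enah without KO replicate 2 (0.0532). Off chromosome 1, Spp1, which encodes the secreted phosphoprotein osteopontin, had 473 and 572 CPM in KO and 215 and 181 CPM in WT (1.40, SE 0.16), and Mt1, a metal-binding metallothionein gene, had 844 and 1268 against 501 and 369 CPM (1.28, SE 0.22). Both kept their calls without any 1 library.

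The 10 genes that lost the most CPM were mt-Nd2 and mt-Rnr1 of the mitochondrial genome, the ribosomal protein genes Rps24, Rpl8 and Rpl26, the signalling ligand gene Bmp4, and Pabpc1, Ybx1, Mkrn1 and Pabpc4. Bmp4 had 210 and 216 CPM in KO and 606 and 630 CPM in WT (-1.53, SE 0.14), a call that held without any 1 library. The mitochondrial transcripts mt-Nd2 and mt-Rnr1 fell by 0.70 (SE 0.14) and 1.07 (SE 0.24), and Rps24, Rpl8 and Rpl26 by 0.54, 0.52 and 0.48 (SE 0.12, 0.12 and 0.13). Those 5 calls were lost without KO replicate 1 (adjusted p = 0.0531, 0.174, 0.142, 0.183 and 0.313) or KO replicate 2 (0.131, 0.0789, 0.175, 0.207 and 0.173), that of Rpl8 also without WT replicate 1 (0.0559) and that of Rpl26 without WT replicate 2 (0.0685). Sequence shared with other genes covers 60.6% of the end of mt-Nd2 and 72.4% of that of Rpl26.

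Pabpc1, the main cytoplasmic poly(A)-binding protein gene, had 2086 and 1756 CPM in KO and 3371 and 3112 CPM in WT (-0.75, SE 0.13). Pabpc4, its paralog, fell by 0.65 (SE 0.14), with 65.9% of its last 200 bases shared with other genes, and the cold shock protein gene Ybx1 by 0.52 (SE 0.13). Mkrn1, a RING finger ubiquitin ligase gene, fell by 0.65 (SE 0.14). The call of Pabpc1, on chromosome 15, was lost without KO replicate 2 (adjusted p = 0.104), and those of Pabpc4, Ybx1 and Mkrn1 without KO replicate 1 (0.0867, 0.125 and 0.158) or KO replicate 2 (0.200, 0.281 and 0.105).

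Pathways were read through 50 gene lists, with 1673 tested genes between them. Of these, 161 were called higher (9.62%) and 100 lower (5.98%), against 7.72% and 5.18% of all tested genes, so the lists as a whole lie near the background. Their counts without KO replicate 1, KO replicate 2, WT replicate 1 and WT replicate 2 were 57, 59, 141 and 172 higher and 18, 26, 92 and 125 lower. The lists that follow are described by their counts and medians, which show no more than that.

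**Figure D5:**
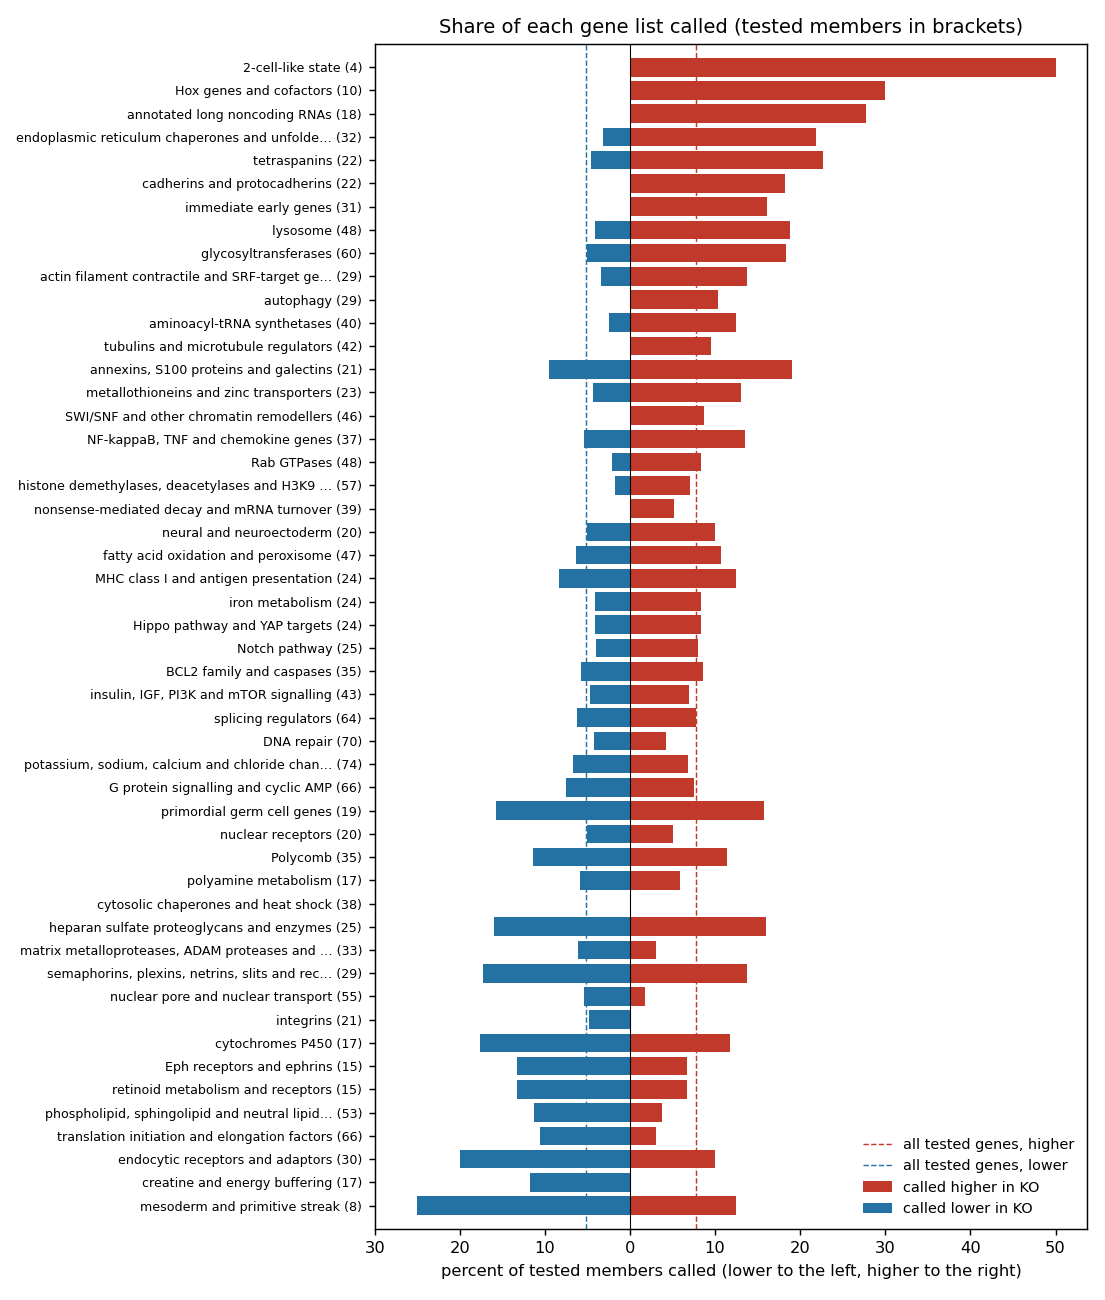
For each of the 50 gene lists, bars show the percentage of tested members called higher in KO (red, to the right) and lower (blue, to the left), with the number tested in brackets. Dashed lines mark the shares over all tested genes, 7.72% higher and 5.18% lower.

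Enzymes that build glycans at the cell surface rose more often than they fell. Of 60 tested glycosyltransferase genes, 11 were called higher (18.3%) and 3 lower, with a median of 0.27. St6gal1, which adds sialic acid to N-linked glycans, had 32.7 and 22.4 CPM in KO and 8.85 and 4.87 CPM in WT (1.98, SE 0.33, adjusted p = 0.00503). St3gal3, another sialyltransferase gene, rose by 1.67 (SE 0.28), a call lost without KO replicate 2 (adjusted p = 0.0511). Against these stood Gcnt1 and Fut10, an alpha-1,3-fucosyltransferase gene, which fell by 1.70 (SE 0.34), a call lost without KO replicate 1 (adjusted p = 0.0767) or KO replicate 2 (0.107). Without KO replicate 1 or KO replicate 2 the list had 6 and 4 calls higher and 1 and 1 lower, and 9 and 3 remained with the correction for position, 2 of the 11 lying on chromosome 1.

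Heparan sulfate proteoglycans carry sulfated chains that hold growth factors at the surface. Of 25 genes for core proteins and enzymes, 4 were called higher and 4 lower. The risers included 2 genes of chromosome 1, each called with the correction for position and without any 1 library. Sulf1, an extracellular 6-O-sulfatase gene, had 34.2 and 43.2 CPM in KO and 10.5 and 8.95 CPM in WT (1.98, SE 0.24), and Hs6st1, the 6-O-sulfotransferase gene, 195 and 238 CPM against 83.9 and 92.9 CPM (1.29, SE 0.17). The 2 enzymes act on the same position of the chain in opposite directions. Sdc1, a syndecan core protein gene, fell by 1.61 (SE 0.26), a call lost without KO replicate 1 (adjusted p = 0.0524). Without KO replicate 1 the list had 2 calls higher and 0 lower, and without KO replicate 2 it had 2 and 1.

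Genes for folding and degradation in the secretory route were more often called higher than lower. Of 32 genes for endoplasmic reticulum chaperones and the unfolded protein response, 7 were called higher (21.9%) and 1 lower, with a median of 0.13. Herpud1, a component of the degradation route for misfolded proteins, had 91.7 and 118 CPM in KO and 19.0 and 33.7 CPM in WT (2.00, SE 0.27, adjusted p = 0.00263) and kept its call without any 1 library. Xbp1, a transcription factor of the response, rose by 1.07 (SE 0.20; adjusted p = 0.0857 without KO replicate 1), and the co-chaperone gene Dnajc3 by 0.98 (SE 0.20; 0.0501 without KO replicate 1 and 0.122 without KO replicate 2). A chaperone-associated gene, Sdf2l1, fell by 1.09 (SE 0.28) and was lost without KO replicate 1 (0.240), KO replicate 2 (0.0626) or WT replicate 2 (0.104). The list had 1 and 2 calls higher without KO replicate 1 and KO replicate 2, and 5 and 6 without WT replicate 1 and WT replicate 2.

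The list of cytosolic chaperones and heat shock genes, which also holds some mitochondrial chaperones and heat shock factors, gave no such calls. Of 38 tested, edgeR called 0, against 9 at an unadjusted p under 0.05, 1 called by DESeq2 and 2 by limma-voom, and Hsp90ab1, a constitutive member, stood at 8794 and 9009 CPM in KO and 9991 and 8948 CPM in WT. Hsp90aa1, its inducible relative, was at 4007 and 4064 against 4330 and 4227 CPM. The count was 1 higher and 1 lower without WT replicate 1, without WT replicate 2 or with the correction for position.

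Of 48 lysosome genes, 9 were called higher (18.8%) and 2 lower, with a median of 0.15. Lamp2, a major membrane protein of lysosomes on the X chromosome, had 181 and 245 CPM in KO and 57.1 and 91.2 CPM in WT (1.52, SE 0.24, adjusted p = 0.00611). Ctsf, cathepsin F, rose by 1.22 (SE 0.32), a call lost without KO replicate 1 (0.122), KO replicate 2 (0.206) or WT replicate 2 (0.0943) and with the correction for position (0.0657), while the protease gene Ctsc fell. The list had 1 and 3 calls higher without KO replicate 1 and KO replicate 2. Autophagy genes had 3 of 29 called higher and 0 lower, 0 of them without KO replicate 1 or KO replicate 2. These were Atg4b, on chromosome 1, the cargo receptor gene Sqstm1 (0.70, SE 0.15) and Map1lc3b (0.64, SE 0.16). Atg4b was not called with the correction for position (adjusted p = 0.0842) or without KO replicate 1 (0.118), KO replicate 2 (0.303) or WT replicate 1 (0.0990). Sqstm1 was at 0.0867 without KO replicate 1 and 0.189 without KO replicate 2, and Map1lc3b at 0.182 and 0.215.

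Endocytic receptors and adaptors fell more often than they rose: of 30, 3 were called higher and 6 lower, with a median of -0.20. Vldlr, a lipoprotein and reelin receptor gene, had 65.5 and 55.0 CPM in KO and 6.26 and 11.7 CPM in WT (2.76, SE 0.28, adjusted p = 0.000507). Scarb2, the receptor that carries glucocerebrosidase to lysosomes, rose by 1.28 (SE 0.16). Amn, the membrane anchor of cubilin, had 1.73 and 1.11 CPM in KO and 8.76 and 9.35 CPM in WT (-2.65, SE 0.41). All 3 kept their calls without any 1 library. Amn, Dab2 and Cubn of this list are also among the primitive endoderm markers, which fell in the same libraries. Without KO replicate 1, KO replicate 2 or WT replicate 1 the calls lower were 2, 2 and 3.

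Guidance and adhesion genes were mixed. Of 29 semaphorins, plexins, netrins, slits and their receptors, 4 were called higher (13.8%) and 5 lower (17.2%). Nrp2, a co-receptor for semaphorins and VEGF on chromosome 1, had 197 and 176 CPM in KO and 44.7 and 51.4 CPM in WT (1.96, SE 0.17, adjusted p = 0.000184). Its change was far above the chromosome's median, and it was called with the correction for position (adjusted p = 0.000473). Sema3e, a secreted semaphorin gene, rose by 2.40 (SE 0.37), and the netrin gene Ntn1 fell by 1.90 (SE 0.28), from 19.0 and 19.5 CPM in WT to 4.56 and 5.80 CPM in KO. The 3 calls held without any 1 library. Counts higher and lower were 2 and 1 without KO replicate 1, 3 and 1 without KO replicate 2, 3 and 3 without WT replicate 1 and 4 and 2 without WT replicate 2.

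Of 22 tetraspanin genes, 5 were called higher (22.7%) and 1 lower, with a median of 0.01. Tspan8 rose by 2.78 (SE 0.39) to 18.3 and 15.7 CPM in KO and kept its call without any 1 library. The list had 2 calls higher without KO replicate 2, and with the correction for position or without WT replicate 2 it had 4 and 2 calls lower. Ephrin signalling had 1 of 15 called higher and 2 lower, with the ligand gene Efnb1 up by 1.64 (SE 0.28). A list of integrins with Ilk, kindlins and talins had 21 tested genes, with 0 called higher and 1 lower. The latter was Itga3, at -1.07 (SE 0.30). Its call was lost without KO replicate 1, WT replicate 1 or WT replicate 2, and with the correction for position (adjusted p = 0.0602). Galectins were in a list of 21 annexins, S100 proteins and galectins, with 4 higher and 2 lower. Beside Lgals9, Lgals3 had 56.1 and 56.5 CPM in KO and 22.0 and 16.7 CPM in WT (1.53, SE 0.21), and held without any 1 library. That list had 2 calls higher without KO replicate 1 or KO replicate 2.

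In the cytoskeleton, 4 of 29 contractile and SRF-target genes were called higher and 1 lower. Tpm1, the gene of an actin-binding tropomyosin, had 177 and 199 CPM in KO and 79.2 and 96.8 CPM in WT (1.09, SE 0.17, adjusted p = 0.00326) and held without any 1 library, and the list had 1 and 2 calls higher without KO replicate 1 and KO replicate 2. Of 42 tubulins and microtubule regulators, 4 were called higher and 0 lower, 2 of them on chromosome 1. The chromosome 1 gene Tuba4a had 652 and 600 CPM against 358 and 352 CPM (0.82, SE 0.13; adjusted p = 0.0715 without KO replicate 1 and 0.0437 with the correction for position). The list had 0, 1 and 1 calls higher without KO replicate 1, KO replicate 2 and WT replicate 1.

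The Hippo pathway limits growth by keeping the co-activators YAP and TAZ out of the nucleus. Of its 24 tested genes and targets, 2 were called higher and 1 lower, with a median of -0.13. Wwtr1, which encodes TAZ, had 175 and 175 CPM in KO and 65.0 and 90.2 CPM in WT (1.17, SE 0.18, adjusted p = 0.00375), and Nf2, an upstream tumour suppressor of the pathway, 233 and 249 CPM against 106 and 117 CPM (1.11, SE 0.15). Both held without any 1 library. Wwtr1 lies in the 50 to 60 Mb window of chromosome 3 in which the KO duplicates parted, and was called with the correction for position (adjusted p = 0.0204). Ptpn14, a chromosome 1 phosphatase gene of the pathway, fell by 1.74 (SE 0.43), lost without KO replicate 1 (0.175), KO replicate 2 (0.198) or WT replicate 1 (0.0896).

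Notch genes gave 2 calls higher and 1 lower of 25. Maml2, a co-activator of Notch transcription, had 20.4 and 20.5 CPM in KO and 2.75 and 0.995 CPM in WT (3.39, SE 0.39, adjusted p = 0.000778), a call that held without any 1 library. Hes6, on chromosome 1, was called at 0.97 (SE 0.23) and not with the correction for position (0.0566), without KO replicate 2 (0.277) or without WT replicate 1 (0.0595). G protein signalling, with 5 higher and 5 lower of 66, and ion channels, with 5 and 5 of 74, were near the background. Kcnk1, a leak potassium channel gene, had 49.4 and 33.2 CPM in KO and 11.1 and 8.85 CPM in WT (2.04, SE 0.27) and held without any 1 library. Insulin, IGF and mTOR genes had 3 higher and 2 lower of 43: Igf1r, a growth factor receptor gene, fell by 1.11 (SE 0.22), a call lost without KO replicate 1 (adjusted p = 0.130). Those 3 lists had 1, 2 and 0 calls higher without KO replicate 1 and 2, 2 and 0 without KO replicate 2.

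Stress-induced and inflammatory regulators rose in part. Of 31 immediate early genes, 5 were called higher (16.1%) and 0 lower, 2 of them on chromosome 1. Gadd45a, a stress and DNA damage gene, had 151 and 144 CPM in KO and 59.6 and 39.9 CPM in WT (1.57, SE 0.20, adjusted p = 0.00156). The chromosome 1 genes Atf3 and Ier5 were not called with the correction for position (adjusted p = 0.0691 and 0.0876), without KO replicate 2 (0.229 and 0.131) or without WT replicate 1 (0.0825 and 0.113), and Ier5 also not without KO replicate 1 (0.233). Of 37 NF-kappaB, TNF and chemokine genes, 5 were called higher (13.5%) and 2 lower. Nfkbia, the inhibitor and feedback target of NF-kappaB, had 479 and 355 CPM against 198 and 155 CPM (1.24, SE 0.19). Gadd45a and Nfkbia held without any 1 library. The immediate early list had 3 and 1 calls higher without KO replicate 1 and KO replicate 2, and 3 with the correction for position. The NF-kappaB list had 1, 1 and 1 without KO replicate 1, KO replicate 2 and WT replicate 1.

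Cell death genes had 3 of 35 called higher and 2 lower, with 0 higher without KO replicate 1 or KO replicate 2. Pmaip1, which encodes the BH3-only protein NOXA, had 6.45 and 8.45 CPM in KO and 21.2 and 34.6 CPM in WT (-1.90, SE 0.31, adjusted p = 0.00479) and held without any 1 library. Bad, another BH3-only gene, rose by 1.09 (SE 0.22; adjusted p = 0.100 without KO replicate 1 and 0.0954 without KO replicate 2). Of 70 DNA repair genes 3 were called higher and 3 lower, 0 and 0 of them without KO replicate 1 or KO replicate 2, and the checkpoint kinase gene Chek2 was at -0.95 (SE 0.18), with adjusted p = 0.0719 and 0.107 in these.

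Translation was covered by 2 lists. Of 40 aminoacyl-tRNA synthetase genes, which charge tRNAs, 5 were called higher (12.5%) and 1 lower, with a median of 0.11. Lars had 481 and 430 CPM in KO and 229 and 268 CPM in WT (0.87, SE 0.15, adjusted p = 0.00595), and Nars, Gars and Sars rose by 0.71, 0.68 and 0.63 (SE 0.15, 0.14 and 0.14). Of 66 initiation and elongation factor genes, 2 were called higher and 7 lower (10.6%), with a median of -0.14. Beside Pabpc1, Eif2s1, the alpha subunit of eIF2, fell by 0.68 (SE 0.14), and Eef2k, the kinase that slows elongation, rose by 1.24 (SE 0.27). Of these calls, that of Pabpc1 held without KO replicate 1, and those of Lars, Nars, Gars, Sars, Eif2s1 and Eef2k were lost. Without KO replicate 2 the calls of Nars, Gars, Sars, Eif2s1 and Eef2k were lost, and that of Eef2k also without WT replicate 1. The synthetase list had 0 and 1 calls higher without KO replicate 1 and KO replicate 2, and 8 without WT replicate 2. The factor list had 1, 0 and 16 calls lower without KO replicate 1, KO replicate 2 and WT replicate 2.

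RNA processing and chromatin regulators were covered by 5 lists. Of 64 splicing regulators 5 were called higher and 4 lower, with 2 and 1 without KO replicate 1 and 2 and 0 without KO replicate 2. Ptbp2, the neural relative of the polypyrimidine tract binding protein, had 48.2 and 41.1 CPM in KO and 13.5 and 15.1 CPM in WT (1.64, SE 0.21, adjusted p = 0.00156). Nova2, a neural splicing factor gene, fell by 1.96 (SE 0.41; 0.118 without KO replicate 2). Decay factors had 2 of 39 called higher and 0 lower, both lost without KO replicate 1 or KO replicate 2.

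Of 46 SWI/SNF and other remodeller genes, 4 were called higher (8.70%) and 0 lower. Phf10, a subunit of the PBAF complex, had 390 and 361 CPM in KO and 121 and 161 CPM in WT (1.41, SE 0.17, adjusted p = 0.00102). The Polycomb list of 35 had 4 called higher and 4 lower (11.4% each), among them Bcor, a subunit gene of a variant PRC1, with 41.6 and 28.1 CPM against 10.7 and 11.1 CPM (1.68, SE 0.26). Histone demethylases, deacetylases and methyltransferases gave 4 higher and 1 lower of 57. Kmt2e rose by 1.59 (SE 0.18), from 57.9 and 70.8 CPM in WT to 214 and 172 CPM in KO, and Hdac7 fell. Ptbp2, Phf10, Bcor and Kmt2e held without any 1 library. Without KO replicate 1 or KO replicate 2 the remodeller, Polycomb and histone enzyme lists had 1 call higher each and the Polycomb list 0 lower. The remodeller list had 8 calls higher without WT replicate 1 and 2 without WT replicate 2, and the Polycomb list 2 lower without WT replicate 1.

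Lipid genes were covered by 2 lists. Of 47 fatty acid oxidation and peroxisome genes, 5 were called higher (10.6%) and 3 lower, with a median of 0.22. Acaa2, a mitochondrial thiolase gene, fell by 1.29 (SE 0.21; 0.0639 without KO replicate 1). Of 53 phospholipid, sphingolipid and neutral lipid genes, 2 were called higher and 6 lower (11.3%). Cers4, a ceramide synthase gene, had 7.95 and 12.8 CPM against 35.7 and 53.3 CPM (-2.10, SE 0.29). Cers4 held without any 1 library, and the oxidation list had 1, 1, 3 and 11 calls higher without KO replicate 1, KO replicate 2, WT replicate 1 and WT replicate 2. The lipid list had 1 call lower without KO replicate 1 or KO replicate 2.

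Metal and polyamine metabolism gave few calls. Among 23 metallothionein and zinc transporter genes, 3 were called higher and 1 lower, with Mt1 first among them. Of 24 iron genes 2 were called higher and 1 lower. Slc40a1, the iron exporter ferroportin on chromosome 1, had 22.0 and 7.94 CPM in KO and 1.34 and 1.69 CPM in WT (3.32, SE 0.62), lost without WT replicate 1 (adjusted p = 0.0702) or WT replicate 2 (0.0527). Trf, the iron carrier transferrin, fell by 2.18 (SE 0.35; 0.0502 without KO replicate 1). Smox, the spermine oxidase gene, had 30.9 and 23.5 CPM against 8.85 and 4.68 CPM (1.98, SE 0.32) and held without any 1 library. Of 17 energy buffering genes 0 were called higher and 2 lower, 0 of them without KO replicate 1 or KO replicate 2. Ak4, an adenylate kinase gene, was at -0.53 (SE 0.15, adjusted p = 0.0429), a call lost without KO replicate 1 (0.303), KO replicate 2 (0.294) or WT replicate 1 (0.0605).

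Regulators of lineage and of germ cells changed singly, and many members were too low to test. Among Hox genes and cofactors, 10 of 45 could be tested, and 3 were called higher. Meis2, a Hox cofactor gene, had 19.5 and 30.1 CPM in KO and 3.09 and 2.88 CPM in WT (3.04, SE 0.35, adjusted p = 0.000778). Of 20 neural genes 2 were called higher and 1 lower. Retinoid genes had 1 of 15 called higher and 2 lower. Crabp1, which binds retinoic acid in the cytoplasm, had 24.2 and 19.7 CPM in KO and 61.8 and 61.5 CPM in WT (-1.49, SE 0.20) and held without any 1 library. Stra8, a retinoid-induced gene of meiotic entry, rose by 0.93 (SE 0.18; adjusted p = 0.111 without KO replicate 2).

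Primordial germ cell genes gave 3 calls higher and 3 lower of 19. Prdm1, the transcriptional repressor that starts germ cell fate in the embryo, had 65.4 and 46.4 CPM in KO and 8.60 and 15.8 CPM in WT (2.21, SE 0.30, adjusted p = 0.00245). Ifitm1, a membrane protein gene expressed in early germ cells, had 443 and 352 CPM against 121 and 74.0 CPM (2.02, SE 0.24). Dazl, an RNA-binding regulator of germ cells, had 15.3 and 15.9 CPM against 38.6 and 69.7 CPM (-1.79, SE 0.29). The 3 calls held without any 1 library. Mael, a chromosome 1 gene of the piRNA route, fell by 1.13 (SE 0.24; 0.173 without KO replicate 1), against the direction of its chromosome's median.

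Of the remaining lists, antigen presentation had 3 of 24 called higher and 2 lower, and its light chain gene B2m fell by 1.19 (SE 0.26), a call lost without KO replicate 1 (adjusted p = 0.183). Rab GTPases had 4 of 48 higher and 1 lower, nuclear pore and transport genes 1 of 55 higher and 3 lower, and nuclear receptors 1 and 1 of 20. Nup107, a scaffold nucleoporin gene, fell by 0.83 (SE 0.18; 0.140 without KO replicate 1 and 0.0937 without KO replicate 2). Cadherins and protocadherins had 4 of 22 higher and 0 lower. Cytochromes P450 had 2 of 17 higher and 3 lower, metalloproteases and their inhibitors 1 of 33 higher and 2 lower, polyamine genes 1 and 1 of 17, and mesoderm genes 1 and 2 of 8. Without KO replicate 1 or KO replicate 2 these 9 lists had at most 1 call in each direction. The 2-cell-like list had 2 of its 4 tested members called higher, Zscan4d and Usp17la, named here after their values were seen. Both belong to families of near-identical copies, between which reads may be split, and 0 of the list were called without KO replicate 2 or either WT library.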

How the data were processed

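Integer counts per gene of 8 QuantSeq 3′ libraries were used as deposited by the authors. The submitters' processing notes name the tool Trim Galore and the build GRCm38. No aligner, counting tool or strand setting is given in the sources used here, so overlapping genes may share reads. Symbols, UTR sequences and positions came from GENCODE M21 for 55240 of 55421 identifiers.

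The 2 KO and 2 WT libraries were fitted alone with edgeR 4.0.16 in R 4.3.3 (filterByExpr, TMM factors, robust quasi-likelihood test, Benjamini-Hochberg threshold of 0.05), with n = 2 a group. The SE of a log2 fold change was derived from the test, as its absolute value divided by the square root of the F statistic. CPM were computed from the counts, and log2 CPM for chromosome medians used an offset of 0.5. The members and the 50 lists were chosen with earlier results of these data known. Named genes are those at the cluster, the 20 largest called rises and falls of at least 10 CPM without overlap, the 10 largest rises and falls in CPM, up to 4 called members of at least 5 CPM per list, and the markers. Those that earlier results had shown, and numbered gene models, are mostly left out of the text. A few named genes are not reported here.

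On simulated data of this design with 14333 genes tested, the fit recovered 97 of 100 genes given a 4-fold change and 65 of 100 given a 2-fold change, with 14 false calls. The changed genes were drawn from those of at least 5 CPM. Simulated counts were independent between genes, with a spread set by the trend over level. They held none of the shifts of whole chromosomes seen between the duplicates, so these rates need not hold for the real libraries. Chi-square per degree of freedom between duplicates was 12.4 in KO and 20.8 in WT, so these are separate libraries. A gene's uncertainty by shared sequence is the share of words of 31 bases in its last 200 bases found in other genes. Alternatives were DESeq2 1.42.0, limma-voom (limma 3.58.1), the legacy fit, 2 other filters, all 8 libraries, upper quartile scaling, a threshold of 0.1, the replicate block and each library left out, when the lone library is assumed to vary like the other group. Corrections for GC at the 3′ end and for position, and comparisons of single libraries, were added after seeing the data.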

Additional observations from a re-analysis of the deposited data

How the results depend on the processing

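The higher and lower counts, 1114 and 747, stayed within 1.5 times under DESeq2 (1078 and 732), limma-voom (1080 and 695), the legacy fit (1051 and 704), both other filters, all 8 libraries (907 and 599), the correction for GC and the correction for position. Upper quartile scaling gave 969 and 945, so that 50.6% of calls were higher against 59.9%. A threshold of 0.1 gave 1303 lower. Leaving out 1 library gave 423 to 1126 higher and 143 to 801 lower, and the median of chromosome 1 then lay between 0.15 and 0.43. Replicate numbers did not pair the samples (correlation of deviations -0.03 over 8713 genes of at least 10 CPM). With the replicate number as a block 645 higher and 376 lower were called, or 808 and 546 with the correction for GC as well. The label suffix CC is shared by KO replicate 2 and WT replicate 1, a pairing that was not fitted. Of the 214 named genes that were called, 78 kept their call in all 4 leave-outs, 157 under the block and 190 with the correction for position. For UTRs over 3000 bases with no seed word the median changed sign to 0.014, from -0.03 over all lengths, and the cause was not tested. With 2 libraries a group, changes under 2-fold are often missed.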
